A study of Mus musculus with 2 samples.

Results

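A probe set on an expression array is a group of short probes summarised into 1 value, and for most of them the platform's annotation names 1 gene. The probe sets described here are those for which it names several. They were chosen by the annotation alone, as every probe set whose gene entry lists more than 1 gene, and their measured values played no part. They number 1621 of 28853 probe sets. Another 21789 name 1 gene and 5443 are not listed in the annotation used here.

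RNA from healing mouse skin was hybridised to 2 Affymetrix Mouse Gene 1.0 ST arrays, 1 for each group. Both groups are cells of skin scar tissue from the TCF reporter mouse, taken 1 week after wounding, and they are labelled B-Gal negative (B-Gal -) and B-Gal positive (B-Gal +). A TCF reporter is read here as a transgene that drives beta-galactosidase where TCF factors, the nuclear partners of beta-catenin, are active. The promoter of the transgene, the strain, age and number of mice and the way the cells were separated are not stated in the labels. The design text describes microdissected tissue that was homogenised, so cells of several types can contribute to either array, and fewer cells of a type cannot be told apart from less RNA per cell. Neither label was checked against lacZ, the gene of the enzyme.

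With 1 array for either label, differences below carry no error and no test, and the precision is that of single arrays. Values are on a log2 scale, a base inferred from their range. A difference is the log2 value on the B-Gal positive array minus that on the B-Gal negative array. A floor of 5.58 was set at the 95th percentile of 1205 probe sets naming 1 olfactory or vomeronasal receptor, genes that skin is not known to use widely. A probe set was counted as above the floor if at least 1 array exceeded it. Counts of 2-fold differences use the values as deposited, and a fold given as "at least" sets the higher array against the floor.

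Genes come to share a probe set in several ways. Duplicated genes that lie side by side, such as the receptor clusters of immune and sensory cells, can keep sequences so alike that a short probe matches all copies. A retrotransposed copy of a busy gene, often a pseudogene, can sit on another chromosome and still carry the sequence of its source. Small RNAs are often listed with the longer transcript that encloses them, and overlapping neighbours or read-through transcripts put unlike genes under 1 entry. The value of such a probe set summarises whatever its probes match, so it cannot be assigned to any single gene that it names.

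The 1621 probe sets named 798 distinct sets of genes and 2032 distinct genes, of which 627 are also named alone by another probe set. A median of 3 genes was named. Of the probe sets, 725 named 2 genes, 571 named 3 to 5, 168 named 6 to 9 and 157 named 10 or more, up to 20. In 638 probe sets at least 2 well-named genes shared the start of their symbol (388 gene sets). In 505 probe sets 1 named gene stood with predicted, clone-named or pseudogene entries (181 gene sets). Named genes with unlike symbols made up 212 probe sets, predicted or clone-named genes alone 148, and sets holding a small RNA 118. In the gene order of RefSeq, 236 gene sets lay on 1 chromosome with each gene within 5 genes of another, 105 overlapped, 262 lay on 1 chromosome farther apart and 178 spanned several chromosomes. Of the 181 sets that pair 1 named gene with predicted or pseudogene entries, 105 spanned several chromosomes, against 27 of the 388 sets of genes with a shared symbol start.

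The likeness of genes named together can be seen in the DNA before their start sites. The 250 bases upstream are shown for 4 pairs, 2 from sets far higher on the B-Gal positive array and 2 from sets far lower. They are taken from RefSeq (GRCm38.p6) and written 5′ to 3′ in the direction of the gene. The 4 pairs were chosen after the values were seen. Capitals mark the bases that differ from the partner within the stretch that both windows share.
Cd300ld3 (chr11:115048331-115048580, minus strand): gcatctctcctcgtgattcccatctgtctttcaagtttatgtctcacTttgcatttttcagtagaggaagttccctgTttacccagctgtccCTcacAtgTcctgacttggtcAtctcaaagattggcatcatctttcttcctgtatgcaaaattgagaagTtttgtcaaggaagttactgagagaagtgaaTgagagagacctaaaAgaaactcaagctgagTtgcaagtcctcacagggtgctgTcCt
Cd300ld5 (chr11:115037691-115037940, minus strand): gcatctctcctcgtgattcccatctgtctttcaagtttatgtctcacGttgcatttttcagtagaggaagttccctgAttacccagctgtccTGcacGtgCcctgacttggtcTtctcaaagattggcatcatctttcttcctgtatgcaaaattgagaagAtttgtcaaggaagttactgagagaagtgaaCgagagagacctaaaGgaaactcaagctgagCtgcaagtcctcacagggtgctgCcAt
Bcl2a1a (chr9:88956670-88956919, plus strand): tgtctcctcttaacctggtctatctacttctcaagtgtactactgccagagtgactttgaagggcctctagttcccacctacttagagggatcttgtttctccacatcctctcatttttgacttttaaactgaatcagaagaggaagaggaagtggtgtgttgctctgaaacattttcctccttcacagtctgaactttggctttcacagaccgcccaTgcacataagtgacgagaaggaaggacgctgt
Bcl2a1b (chr9:89199023-89199272, plus strand): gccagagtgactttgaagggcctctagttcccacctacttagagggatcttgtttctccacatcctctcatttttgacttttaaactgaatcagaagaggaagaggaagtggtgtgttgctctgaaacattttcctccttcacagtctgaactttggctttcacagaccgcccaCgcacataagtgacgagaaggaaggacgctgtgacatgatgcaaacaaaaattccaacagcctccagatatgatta
C1ra (chr6:124512371-124512620, plus strand): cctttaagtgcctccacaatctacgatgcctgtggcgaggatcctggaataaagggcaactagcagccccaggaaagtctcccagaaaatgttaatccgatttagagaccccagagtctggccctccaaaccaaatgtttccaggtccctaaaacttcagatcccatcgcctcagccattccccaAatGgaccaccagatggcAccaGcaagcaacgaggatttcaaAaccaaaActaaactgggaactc
C1rb (chr6:124570180-124570429, plus strand): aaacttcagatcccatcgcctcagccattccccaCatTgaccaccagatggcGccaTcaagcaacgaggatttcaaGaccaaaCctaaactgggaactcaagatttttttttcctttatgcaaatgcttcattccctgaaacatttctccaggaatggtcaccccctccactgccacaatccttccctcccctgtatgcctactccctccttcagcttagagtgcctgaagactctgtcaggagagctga
Plac9a (chr14:25902894-25903143, minus strand): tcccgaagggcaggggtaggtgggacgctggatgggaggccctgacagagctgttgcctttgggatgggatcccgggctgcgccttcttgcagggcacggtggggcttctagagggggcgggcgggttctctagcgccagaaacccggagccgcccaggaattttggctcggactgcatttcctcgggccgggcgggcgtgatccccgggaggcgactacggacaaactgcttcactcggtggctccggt
Plac9b (chr14:26182352-26182601, minus strand): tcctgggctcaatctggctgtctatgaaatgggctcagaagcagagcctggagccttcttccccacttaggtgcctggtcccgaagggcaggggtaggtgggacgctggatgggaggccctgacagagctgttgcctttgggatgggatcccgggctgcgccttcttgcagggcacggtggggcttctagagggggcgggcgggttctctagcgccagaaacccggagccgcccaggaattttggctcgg
The windows of Cd300ld3 and Cd300ld5 aligned over all 250 bases and were identical at 237 of them (94.8%). Those of Bcl2a1a and Bcl2a1b shared a stretch of 206 columns, with 205 identical. C1ra and C1rb shared 99 columns, with 93 identical, and the annotated start of one lies farther along the shared DNA than that of the other. Plac9a and Plac9b shared 172 columns, all identical. For comparison, Ly6c1 and Ly6c2 shared 228 columns at 71.9% identity. Sirpb1a and Sirpb1b shared 157 columns at 95.5%.

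Windows for at least 2 genes were available for 469 gene sets, and in 337 of them the best pair shared a stretch of 60 columns or more, with a median identity of 95.6%. Identity reached 90% in 169 of 292 sets of genes with a shared symbol start and in 3 of 68 sets of genes with unlike symbols. A pair of motifs was searched on both strands, allowing overlap: CTTTGAT, a core bound by TCF factors, and GAGGAAG, a core bound by PU.1, a transcription factor of myeloid cells. CTTTGAT was in 3.21% of all 32851 windows of this length. It was in 5 of 188 windows of genes named by probe sets at least 2-fold higher on the B-Gal positive array (2.66%), and in 0 of 92 windows of genes named by probe sets at least 2-fold lower. GAGGAAG was in 10.6% of all windows, in 36 of the 188 windows (19.1%) and in 5 of the 92 (5.43%). Both Cd300ld windows printed above hold GAGGAAG 1 time and both Bcl2a1 windows 2 times. Paralogues share these bases, so the windows are not independent, and a match is a description of letters only.

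A few microRNA sequences are shown because probe sets that name them are described further on. These are mature sequences from RefSeq (GRCm38.p6), with the seed, bases 2 to 8, in capitals.
miR-27b-3p (chr13:63300760-63300780, plus strand): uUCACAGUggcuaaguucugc
miR-24-3p (chr13:63301251-63301272, plus strand): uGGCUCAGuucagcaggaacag
miR-410-3p (chr12:109743764-109743784, plus strand): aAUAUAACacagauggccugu
miR-433-3p (chr12:109591781-109591802, plus strand): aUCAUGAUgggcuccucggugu
miR-675-5p (chr7:142577112-142577133, minus strand): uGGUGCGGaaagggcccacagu
let-7b-5p (chr15:85707325-85707346, plus strand): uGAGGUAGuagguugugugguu
let-7c-5p (chr15:85706616-85706637, plus strand): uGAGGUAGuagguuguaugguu
The pair of let-7 members shares 1 seed, GAGGUAG, and the other 5 sequences each have a seed of their own.

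On the 2 arrays together, 1145 of the 1621 probe sets were above the floor. Of these, 208 (18.2%) were at least 2-fold higher on the B-Gal positive array and 74 (6.46%) at least 2-fold lower. Among all 19061 probe sets above the floor the corresponding shares were 10.8% and 11.2%, and among the 15303 naming 1 gene they were 9.81% and 12.6%. The median difference of the several-gene probe sets was 0.04, beside 0.06 for probe sets naming 1 gene. Without the floor, the medians were 0.23 over all 1621 and 0.12 over the 21789 naming 1 gene.

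Part of the excess came from a few gene sets counted many times. The 208 higher probe sets named 78 gene sets, and 3 of these held 56 of the probe sets. The 74 lower ones named 38 gene sets. With the brightest probe set taken for each gene set, 514 sets were above the floor, of which 76 (14.8%) were higher and 38 (7.39%) lower. Of the 208 higher probe sets, 80 had a B-Gal negative value at or under the floor, and 128 (53 gene sets) exceeded it on both arrays. Of the 74 lower ones, 15 had a B-Gal positive value at or under it. At least 4-fold differences were found for 19 higher probe sets (11 gene sets) and 17 lower (13 gene sets). These are 1.66% and 1.48% of those above the floor, beside 2.82% and 5.75% of probe sets naming 1 gene. The larger share of higher probe sets seen at 2-fold was thus not present at 4-fold.

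The values also varied with brightness. Among several-gene probe sets with a mean log2 value of 5 to 6, 67 of 298 had a 2-fold higher value or more and 9 a 2-fold lower one, and the median difference was 0.62. The 4072 probe sets of that brightness naming 1 gene had a median of 0.16, with 79 higher and 239 lower. At a mean of 7 to 9, 75 of 284 several-gene probe sets had a 2-fold higher value and 19 a lower one, with a median of 0.22, beside 771 and 836 of 6329 naming 1 gene. At a mean of 9 or more, the 447 several-gene probe sets had a median of -0.21, with 18 higher and 25 lower. The 2750 of that brightness naming 1 gene had a median of 0.09, with 442 higher and 238 lower. The excess of higher values was thus found in dim and middling probe sets and not in the brightest. Whether dim probe sets matching many genes read RNA of those genes was not tested.

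Probe sets of 1 gene set read nearly the same sequence, so their closeness is no independent measure of how reproducible a value was. The ranges given next include probe sets with identical values. Of the 798 gene sets, 287 were named by 2 or more probe sets. Their differences spread over a median range of 0.08, and in 272 of the 287 the range was under 0.5. Only 2 sets had a range of 1 or more, the widest 1.08, for Naa80 and Hyal1. Some of the likeness is exact: 296 probe sets had the same pair of values as another, in 109 groups of up to 19, and 107 of these groups named the same genes. Such repeats are 1 measurement listed several times, and none of these probe sets is a replicate of a condition.

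Myeloid receptor genes led the probe sets higher on the B-Gal positive array. Markers of macrophages, each from a probe set naming 1 gene, lay on the same side: 10 of 10 were at least 2-fold higher, with a median difference of 4.72, and their summed linear level was 2144 on the B-Gal negative and 40411 on the B-Gal positive array. Fibroblast markers were lower in 10 of 10 (median -3.57, summed level 87071 and then 15451), endothelial in 5 of 5 (-2.06) and mast cell in 5 of 5 (-3.05). T cell markers were lower in 2 of 4 above the floor, keratinocyte markers in 2 of 5, and neutrophil markers in 3 of 5 with 1 higher. Thy1 is on both the fibroblast and the T cell list and is counted as lower in both. The part of these cell types in the results that follow was not tested. Paired immune receptors, gene clusters whose products carry activating or inhibitory signals into leukocytes, exceeded a 2-fold higher value in all 8 of their several-gene probe sets, whose median was 2.30. These 8 come from 3 gene sets. The 47 probe sets naming 1 such gene above the floor had a median of 1.75, and 28 were higher and 2 lower.

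The largest difference belonged to Cd300ld3, Cd300ld4 and Cd300ld5, members of the CD300 family of immunoglobulin-like receptors on myeloid cells. Their 2 probe sets read 6.49 and 6.51 on the B-Gal negative array and 10.52 and 10.48 on the B-Gal positive array. That is 16.4-fold and 15.6-fold, from probe sets that name the same genes. Cd300ld, the neighbouring gene named alone, read 7.36 and 10.47, a difference of 3.11. The Pira and Pirb genes, paired receptors for which Pirb is the inhibitory form, were named with Lilra6 by 2 probe sets that read 7.42 and 7.63, then 10.14 and 10.14. Their differences of 2.72 and 2.51 lie between those of Pirb alone (2.86) and Lilra6 alone (1.41). The 4 probe sets of Sirpb1a, Sirpb1b and Sirpb1c, signal-regulatory proteins of myeloid cells, read 7.19 to 8.17 and then 8.87 to 10.26, with differences of 1.68 to 2.09. Sirpa, their relative named alone, differed by 2.27.

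The Bcl2a1 genes, which encode the anti-apoptotic protein A1 of blood cells, were named together by 3 probe sets. These read 7.93, 8.35 and 8.37 on the B-Gal negative array and 10.54, 10.92 and 10.91 on the B-Gal positive array. The differences were 2.61, 2.57 and 2.54, and Bcl2a1c alone differed by 2.02.

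Other sets among the 12 largest higher differences hold metabolic genes. Naa80 and Hyal1, genes for an actin acetyltransferase and a lysosomal hyaluronidase, share 2 probe sets. One read 6.34 and then 9.06, a 6.60-fold difference, and the other 6.68 and then 8.32, or 3.12-fold. Mthfs and Mthfsl, of folate metabolism, read 7.28 and 7.58 and then 9.69 and 9.77. Apoc2, an activator of lipoprotein lipase, is listed with a predicted gene and read 6.44 and then 8.65. Apoe, which lies in the same gene cluster and is named alone, differed by 3.19. Evi2a and Evi2b, small membrane proteins encoded inside an intron of Nf1, read 7.20 and then 9.59.

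Interferon-induced genes went in both directions, while 6 of the 7 MHC probe sets above the floor had a value over 0. Gvin1, a very large interferon-inducible GTPase, was named with predicted genes by 3 probe sets, with differences of 1.51 to 2.10. Oas1a and Oas1g, antiviral oligoadenylate synthetases, read 7.42 and then 9.09 (1.68), and Oas1a alone differed by 1.24. Gbp2 and Gbp2b, guanylate-binding proteins induced by interferon, read 8.91 and then 8.35, and Tgtp1 and Tgtp2, GTPases of the same response, 7.29 and then 6.97. The interferon-induced family was limited to probe sets naming at least 2 such genes, so it leaves out the 3 Gvin1 probe sets, all at least 2-fold higher. Its 6 probe sets had a median of -0.21, and 1 was 2-fold higher and 4 had a value under 0. The 52 probe sets naming 1 interferon-induced gene had a median of 0.67, with 20 higher and 2 lower. H2-D1 and H2-K1, the classical MHC class I genes, read 10.94 and 10.93 and then 12.24 and 12.11. H2-DMb1 and H2-DMb2, which help load peptide on class II molecules, read 7.32 and then 8.66. Above the floor were 7 MHC probe sets, 3 of them 2-fold higher and 0 lower. Their median of 0.69 is beside 0.98 for 19 probe sets naming 1 MHC gene.

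Several further sets were at least 2-fold higher, described here after their values were seen. Ftl1, the ferritin light chain, was listed with Mir692-2 and Mir692-3 by 4 probe sets that differed by 1.27 to 1.31, and Ftl1 alone by 1.46. Gnpda1, a glucosamine-6-phosphate deaminase, was listed with a predicted gene by 2 probe sets at 1.93 and 1.26. Cdkn1a, the cell cycle inhibitor p21, read 9.98 and then 11.16. Sp110, a nuclear body protein, was named by 6 probe sets with predicted genes, between 1.16 and 1.48. Hspa1a and Hspa1b, the inducible heat shock proteins, read 11.58 and then 12.69. Stxbp3, a regulator of vesicle fusion, was listed with its pseudogene at 8.96 and then 10.13, and M6pr, the receptor that carries lysosomal enzymes, with its own at 10.39 and then 11.41. Tagap, a GTPase-activating protein of lymphocytes, shared a probe set with its copy Tagap1 at 8.03 and then 9.41. Tnfsf12 and Tnfsf13, the ligands TWEAK and APRIL, shared a value of 7.02 and then 8.49.

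A connective tissue enzyme and an imprinted RNA headed the lower probe sets. Loxl2, a lysyl oxidase that cross-links collagen, was listed with a predicted gene and read 11.76 on the B-Gal negative and 7.34 on the B-Gal positive array, 21.4-fold lower. Lox, Loxl1 and Loxl3, named alone, differed by -4.48, -3.80 and -3.26. C1ra and C1rb, copies of the gene for the complement protease C1r, read 11.07 and then 7.72, 10.3-fold lower. C1ra alone differed by -2.31 and C1s1, the partner protease, by -4.25. Ly6c1 and Ly6c2, small surface proteins of endothelial cells and of monocytes, shared 2 probe sets. One read 12.003 and then 9.25, 6.75-fold lower, and the other 11.35 and then 9.18, 4.50-fold lower. These stand beside 9 probe sets naming 1 Ly6 gene, none 2-fold different. Plac9a and Plac9b, whose upstream windows are printed above, had 3 probe sets at -2.17, -2.17 and -2.05, of which 2 hold identical values.

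Rian is a long RNA of the Dlk1-Dio3 imprinted region, where Meg3, Rian and Mirg are read from the maternal chromosome and carry many small RNAs. Listed with a small RNA clone, it read 10.12 and then 5.96, 17.9-fold lower. Rian alone differed by -3.54 and Meg3 alone by -4.34. Mirg with Mir410 read 6.50 and then 3.76, which is at least 1.89-fold against the floor. Mir433 with a clone-named transcript of the same region read 7.55 and then 5.99, a difference of -1.56. Dlk1, a protein-coding gene of that region, differed by -0.61, a smaller difference than those of the RNAs. Mir675 was listed with Supt6, a transcription elongation factor on another chromosome, at 10.58 and then 7.90, 6.41-fold lower. Supt6 alone differed by 0.07. Mir675 is processed from H19, an imprinted RNA.

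Further sets at least 2-fold lower named genes of several kinds. Schip1, a cytoskeletal adaptor, was listed with its read-through partner Iqschfp at 9.27 and then 6.72. Akap2 and Palm2 were each listed with their fusion locus Pakap and differed by -2.11 and -2.10, and Pakap alone by -2.10. Stfa2 and Stfa2l1, stefins that inhibit cathepsins, read 7.10 and then 3.75, at least 2.86-fold lower. Tubb2a and Tubb2b, tubulins, read 7.45 and then 6.05, and alone they differed by -0.93 and -2.04. Hjurp, a chaperone of centromeric histone, read 9.52 and then 7.78. The Mrgpra receptors, found on sensory neurons, shared 2 probe sets, both at -1.52. A set of 6 or 7 predicted genes headed by Gm21158 had 9 probe sets between -1.64 and -1.45, from 8.51 to 8.69 on the B-Gal negative array.

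Genes that overlap, adjoin or share a locus also had lower values, described after those were seen. Prnd, which encodes the prion-like protein doppel, was listed with the fusion locus Prn and read 8.10 and then 6.05. Prn alone differed by 0.29, but its values of 5.50 and then 5.79 were near the floor. B4galt2, a galactosyltransferase, shared a probe set with Ccdc24 at 7.60 and then 5.78. Septin5 and Gp1bb, a septin and a platelet adhesion receptor chain that lie next to each other, read 7.62 and then 5.90. Cbx6 and Nptxr, a Polycomb protein and a neuronal pentraxin receptor, read 7.21 and then 5.62. Gnas, the stimulatory G protein alpha subunit, was listed with its antisense transcript at 9.14 and then 8.42, a difference under 2-fold.

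Histone genes had a median well under 0. The clustered H2a, H2b, H3 and H4 genes are expressed in S phase, and their copies encode nearly the same protein, so many share probe sets. Above the floor were 29 histone probe sets with a median of -1.23, of which 15 were lower by 2-fold or more and 0 higher. The 15 come from 2 gene sets, and with 1 probe set per gene set the histone median was -0.62. The 10 probe sets naming the same 12 H3 genes read 10.15 to 11.18 on the B-Gal negative array and 8.92 to 9.86 on the B-Gal positive array. The 5 H4 probe sets above the floor differed by -1.26 to -1.24. The H2b genes had 8 probe sets at -0.90 to -0.62, and the 2 naming H2a genes differed by -0.44 and -0.40. H3f3a, which encodes the variant H3.3 made throughout the cell cycle, had higher values in 4 probe sets, 0.47 to 0.60. Within the family 4 of the 29 also had a value above 0, up to 0.82, all naming H2al1 genes, histone variants of the testis, whose B-Gal negative values were under the floor. For 33 probe sets naming 1 histone gene the median was -0.02, with 3 lower and 1 higher. Named alone, H4c4 and H4c6 differed by -1.34 and -1.19, but H4c9 by 0.30. H3c4 alone differed by 0.11, at 6.05 and then 6.16, near the floor and far dimmer than the shared H3 probe sets. H2bc4 and H2bc8 alone differed by 0.43 and 0.56, opposite in sign to the shared H2b probe sets. Mki67, a proliferation marker, differed by -0.29 and Top2a, a topoisomerase of dividing cells, by -1.16 in its brighter probe set.

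Families of housekeeping genes with many copies had small differences. Ribosomal proteins were named by 239 probe sets, the most of any kind, since their retrotransposed copies lie across the genome. Above the floor were 238, with a median of -0.22. None was 2-fold higher and 2 were 2-fold lower, while 219 had a value under 0 and 18 one over 0. Rpl21, listed with Camkv and Cep170 by 23 probe sets, differed by -0.23 to -0.18. Rps2 with a predicted gene, in 17 probe sets, differed by -0.47 to -0.34. Rpl7a, in another 17, differed by -0.07 to 0.07, so the ribosomal proteins had no 1 common difference. Hmgb1, an abundant chromatin protein, was named with its copies by 34 probe sets, all between -0.71 and -0.36. Hmgb1 alone read 7.76 and then 6.55, a difference of -1.21.

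Gapdh was named by 25 probe sets with its copies and by none alone. They read 11.97 to 13.31 on the B-Gal negative array and differed by 0.01 to 0.11. Actb and Actg1, the cytoplasmic actins, shared 4 probe sets at 0.04 to 0.10. Under quantile normalization 4 of the 25 Gapdh values and 3 of the 4 actin values became negative. Hba-a1 and Hba-a2, the alpha globins of red blood cells, read 6.77 and 6.74 and then 6.95 and 6.95.

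Snord116 held the largest block of repeated values. These small nucleolar RNAs lie in the imprinted Snrpn region and are known as abundant in brain. The set of Snord116l1, Snord116l2 and Gm26504 was named by 24 probe sets, all at least 2-fold higher on the B-Gal positive array, by 1.52 to 2.05. They hold only 6 distinct pairs of values, and 19 probe sets are identical at 6.46 and 8.44. Without them, an alternative chosen after seeing the data, 184 of 1121 several-gene probe sets (16.4%) were higher. Snurf and Snrpn, at the start of that region, were under the floor on both arrays, at 4.55 and 3.54. Ndn, a coding gene of the region named alone, read 9.39 and then 5.86, so genes of the region lay on both sides of 0. Single small nucleolar RNAs had a median of -0.25 over 55 probe sets, with 0 higher and 4 lower.

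Several multicopy genes of the sex chromosomes had higher values. Ssty2, a Y-linked gene of spermatids, was named with up to 12 predicted copies, and its largest set had 17 probe sets, all at least 2-fold higher, with differences of 1.61 to 1.84. Ssty1 had 23 probe sets with 1 predicted copy, with differences of 0.88 to 1.59. The Ssty1 values on the B-Gal negative array ran from 4.22 to 6.50, across the floor. Over the 22 Ssty1 probe sets above the floor their median was 5.24, under it, so many passed only through the higher array. Y-linked genes expressed in most male tissues and named alone differed less: Eif2s3y by 0.46, Kdm5d by 0.39 and Uty by 0.77, and Xist was under the floor on both arrays. Xlr4a, Xlr4b and Xlr4c, X-linked lymphocyte-regulated genes, had 3 probe sets at 5.81 to 6.04 and then 7.72 to 7.92. These were the 3 above the floor among 17 several-gene probe sets that name at least 2 X or Y multicopy genes. The Ssty sets name 1 such gene with predicted copies and are not among the 17. The 19 above the floor naming 1 such gene went differently, with 0 higher, 4 lower and a median of 0.01.

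Germline and sensory families, whose genes skin is not known to use, are described over all their probe sets, since most that passed the floor did so only through the array where they were higher. The PRAME family, expressed mainly in germ cells and early embryos, had a median difference of 0.87 over 46 probe sets, beside 0.33 over 16 naming 1 such gene. Of the 23 above the floor, 19 passed through the B-Gal positive array alone, so a count of their direction has no weight. The set of Pramel37, Pramel39, Pramel50 and a clone-named gene had 11 probe sets, at 5.37 to 5.75 and then 6.55 to 6.83. Speer genes, of spermatogenesis, had a median of 1.01 over 13 probe sets, beside 0.48 over 5 naming 1 gene, and 6 of the 7 above the floor passed through the B-Gal positive array alone. Olfactory receptors, the odour sensors of the nose, had a median of 0.52 over 98 probe sets, and vomeronasal receptors, the pheromone sensors, 0.49 over 65. Probe sets naming 1 such receptor had medians of 0.29 and 0.25, so higher values are also present in the probe sets that set the floor. With an offset of 32 on the linear scale, which damps dim values, 0 probe sets of these 4 families were at least 2-fold higher. Against the floor, folds of at least 2.25 were reached in the Pramel50 set and of at least 2.10 for Olfr1377 with Olfr1378 and Olfr51.

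Antigen receptor segments, which many probe sets name together because the segments are near copies, differed little. T cell receptor segments had 24 of 42 probe sets above the floor, with 0 higher, 2 lower and a median of 0.20. Both lower probe sets name Trgv2, Trgv4 and Trgv6, gamma chain segments, and read 6.24 and 5.71 and then 4.95 and 4.68. Both passed the floor through the B-Gal negative array alone, so their direction has no weight. Against the floor they were at least 1.58-fold and at least 1.09-fold lower. The alpha chain segments (Trav) were between -0.04 and 0.70 in 22 probe sets above the floor. Cd3g, the T cell marker named alone, differed by -2.82. Immunoglobulin segments had 3 of 16 above the floor, all 3 through the B-Gal positive array alone, with 0 beyond 2-fold. The Ccl21 genes, chemokines of lymphatic vessels, were named by 4 probe sets with 1 identical value pair, 7.37 and then 6.64. Keratin-associated proteins, which build the hair shaft, had 7 of 7 above the floor between 0.54 and 0.89, and 19 probe sets naming 1 such gene had a median of 0.59.

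Zinc finger genes of clustered families split in direction. Above the floor were 20 probe sets, 3 of them 2-fold higher or more and 2 lower, while 14 had a value under 0 and the median was -0.25. Among 280 naming 1 zinc finger gene, 2.50% were higher and 6.79% lower. Those higher name Zfp534, Zfp991 and neighbours, at 9.48, then 10.70 in the set of 8 genes, and Zfp991 alone differed by 1.43. Zfp808 with Zfp934 read 6.04 and then 4.77, at least 1.38-fold lower.

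The remaining families of 5 or more had few probe sets above the floor or small differences. Splicing and RNA-binding proteins had 9 of 9 above the floor, between -0.51 and -0.22. Tubulins had 5 of 5, from -1.40 to -0.39, with 1 at least 2-fold lower. Defensins, antimicrobial peptides of epithelia, had 5 of 7, between 0.25 and 0.65, and 3 of the 5 passed the floor through the B-Gal positive array alone. Glutathione transferases, detoxifying enzymes, had 2 of 6, at -0.76 and -0.74. Serpins had 1 of 5 at 0.23 and homeobox genes (Obox, Hoxb and Duxbl sets) 1 of 9, an Obox set at 0.95. The Obox set passed the floor through the B-Gal positive array alone and was at least 1.23-fold higher against it. Major urinary proteins and lipocalins, with 7 probe sets, and cytochromes P450, with 6, had 0 above the floor.

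MicroRNAs were named by 61 probe sets and 67 microRNA genes, of which 37 had a mature sequence in the RefSeq table. Of these probe sets 22 were above the floor, 6 of them 2-fold higher and 3 lower. Of the 6, 4 are the Ftl1 set with Mir692-2 and Mir692-3, and the others list Aopep. Among 126 probe sets above the floor naming 1 microRNA, 9 were higher and 28 lower. The cluster of Mir23b, Mir27b and Mir24-1 lies within Aopep, an aminopeptidase gene, and each is listed with it. Mir23b read 7.36 and then 8.63, Mir27b 5.92 and then 7.47, and Mir24-1 5.12 and then 5.47, under the floor on both arrays. Their differences were 1.27, 1.55 and 0.34, and Aopep alone differed by 1.04. The let-7 genes Mirlet7b and Mirlet7c-2, each listed with the long RNA Lncppara, differed by -0.28 and 0.01. The annotation does not say whether such a probe set reads the precursor of the microRNA or the host transcript.

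The same gene named alone and with others could be compared in 337 pairs from 222 gene sets, with both probe sets above the floor. For each set the probe set brightest on the B-Gal negative array was used, and for the gene alone the brightest by the mean of both arrays. The absolute gap between the differences had a median of 0.35. It was under 0.5 in 215 pairs and at least 1 in 35. In 49 pairs the several-gene probe set differed at least 2-fold, and in 29 of these the gene alone did so in the same direction, while 7 had the opposite sign.

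Several of the wide gaps are described here, chosen after they were seen. Itgam, the integrin CD11b of myeloid cells, read 8.72 and then 11.42 alone. Listed with the ribosomal protein gene Rpl35 it had 3 probe sets, from 10.04 to 10.19 and then 9.60 to 9.83, all slightly lower. Fyb, an adaptor of leukocyte signalling, differed by 3.39 alone and by 0.00 and 0.03 when listed with Phb, a mitochondrial scaffold protein. Syngr1, a vesicle protein, differed by 2.51 alone and by -0.22 and -0.20 with Rpl3.

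Wide gaps were also found for genes lower on the B-Gal positive array. Ramp2, a receptor component of endothelium, differed by -2.43 alone and by -0.04 with Malat1, an abundant nuclear RNA, where the value was 13.31 and then 13.27. Cdh11, a cadherin of mesenchyme, differed by -4.33 alone and by -1.05 to -0.40 in 3 probe sets listed with clone-named genes. P3h1, a collagen prolyl hydroxylase, differed by -3.20 alone and by -0.49 with a clone-named neighbour. Tuba1a, an alpha tubulin, differed by -2.43 alone and by -0.51 to -0.39 with Tuba1b and Tuba1c. In each of these cases the shared value did not give the difference of the gene that the single-gene probe set names.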

How the data were processed

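The authors deposited 1 log2 value per probe set and array, a base inferred from the values. Partek is the tool listed, per the submitters' processing notes, with no version or role, and how values were normalized or background-corrected is not given in the sources. Genes came from the platform's annotation, which can be old. The members, gene families and lists were chosen with earlier results of these data known. The named probe sets were the 12 largest differences above the floor in each direction with at least 1 well-named gene, up to 3 in each family of 5 or more, the 3 naming most genes, and those naming fixed genes. Of the fixed genes, no several-gene probe set analysed here named Tcf7, C4a, C4b, Tmsb4x or an Ifitm gene. Further sets and single-gene partners were chosen after values were seen. A family needed 2 of a probe set's genes. A comparison of proteins was planned and could not be made with the tables used here, so upstream windows were aligned instead (biopython 1.88, free end gaps, stretches of at least 60 columns), a choice made after other alignments were seen. Gene order used RefSeq (2007 of 2032 genes located). Python 3.11.15 with pandas 2.3.3 was used, no p-value was computed, and the counting was tested on simulated data. Alternatives were 3 scalings, an offset, 3 treatments of dim values, other thresholds, 1 probe set per gene set and genes listed by symbol alone.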

Additional observations from a re-analysis of the deposited data

How the results depend on the processing

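The 208 higher and 74 lower several-gene probe sets were recounted under each alternative. An offset of 32 on the linear scale left 111 higher. A threshold of 1.5-fold gave 339 higher and 145 lower, and 4-fold gave 19 and 17. The share higher was 29.6% at 1.5-fold, beside 18.8% of probe sets naming 1 gene. At 4-fold it was 1.66%, beside 2.82%. Taking 1 probe set per gene set gave 76 and 38. With no filter on low values the median difference was 0.23 in place of 0.04, and under the floor of the 99th percentile it was -0.05. Both counts otherwise stayed within 1.5 times, also without the Snord116 probe sets, an alternative chosen after seeing the data. The loess fit took the median of all probe sets from 0.14 to -0.0012. The families depended more on the processing, and the cause was not tested. The microRNA family recounted below needed 2 of a probe set's genes, so it is narrower than the microRNA probe sets described earlier. It held 38 probe sets, of which 7 were above the floor, with a median of 1.27. Of these 7, 4 were 2-fold higher and 1 lower.

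With the offset, medians were -0.59 for chemokines, 0.28 for defensins, 0.33 for immunoglobulin segments, 0.46 for olfactory receptors, 0.47 for the PRAME family, 2.15 for paired immune receptors, 1.66 for small nucleolar RNAs, 0.68 for Speer genes, 0.49 for vomeronasal receptors and 1.48 for X and Y multicopy genes. Calls went to 0 for olfactory receptors (from 7 higher and 1 lower of 27) and the PRAME family (from 11 higher of 23). They also went to 0 for Speer genes (from 6 higher of 7) and vomeronasal receptors (from 5 higher of 13). Lower calls went to 0 from 2 of 24 for T cell receptor segments and from 2 of 20 for zinc fingers.

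When values under the floor were raised to it, medians were 0.18 for defensins, 0.41 for immunoglobulin segments, 0.29 for olfactory receptors, 0.10 for PRAME, 0.27 for Speer genes and 0.50 for vomeronasal receptors. Higher calls were then 1 olfactory, 1 Speer and 0 vomeronasal, and lower calls 0 for microRNAs, olfactory receptors and T cell receptor segments and 1 for zinc fingers.

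With no filter, medians were -0.72 for histones, 0.34 for immunoglobulin segments, 0.12 for microRNAs, 0.52 for olfactory receptors, 1.01 for Speer genes, 0.49 for vomeronasal receptors and 0.58 for X and Y multicopy genes. Higher calls were 8 of 38 for the microRNA family (4 with the floor) and 15 of 98 olfactory. They were 18 of 46 for PRAME and 11 of 65 vomeronasal, and 2 of 41 small nucleolar RNA probe sets were lower. With no filter, 16.2% of all several-gene probe sets were higher and 4.81% lower, beside 7.26% and 9.17% of those naming 1 gene. With the floor at the 99th percentile, medians were 1.09 for olfactory receptors, 1.19 for PRAME and 1.08 for vomeronasal receptors. Higher calls were 4 olfactory and 2 vomeronasal, and lower calls 0 olfactory, 0 T cell receptor and 1 zinc finger.

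After loess, medians were 0.28 for defensins, 0.35 for immunoglobulin segments, 0.61 for olfactory receptors, 0.98 for Speer genes and 0.60 for vomeronasal receptors, and higher calls 3 olfactory, 3 Speer and 2 vomeronasal. Quantile normalization gave 0.36 for defensins, 0.69 for olfactory receptors, 1.05 for PRAME and 1 lower zinc finger. Centring gave -0.85 for histones.

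With 1 probe set per gene set, medians were 0.33 for defensins, -0.62 for histones, 0.086 for microRNAs, 2.51 for paired immune receptors and 0.49 for small nucleolar RNAs. Higher calls were then 1 microRNA, 4 olfactory, 3 paired immune receptor and 1 small nucleolar RNA, and lower calls 2 histone and 1 T cell receptor. Without Snord116, small nucleolar RNAs had a median of 0.51 and 0 higher. In all, 41 of 204 family medians moved by over 0.1 and 35 of 408 family counts by over 1.5 times. Of 1156 values recomputed for the named probe sets, 33 dropped below 2-fold and 0 turned in sign past it. No paired analysis was possible because each group has 1 array.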
